A study of Homo sapiens with 12 samples.

Results

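The HOX cluster genes are the protein-coding genes of the HOXA, HOXB, HOXC and HOXD clusters. They were selected by name from the GENCODE annotation on hg19, which gave 39 of the 20090 protein-coding genes on chromosomes 1 to 22 and X. HOXA held 11 genes in chr7:27122612-27249710, HOXB 10 genes in chr17:46595888-46816112, HOXC 9 genes in chr12:54322615-54459814 and HOXD 9 genes in chr2:176947449-177065635. Each of these windows runs from the first to the last HOX gene with 10 kb added on either side. All cells were HCC70, an established triple-negative breast cancer line, treated for 24 h with vehicle or with XY018, an antagonist of the nuclear receptor RORγ. The dose of XY018 was 5 µM by the labels, and lower by the study's methods. Chromatin was immunoprecipitated with antibodies against H3K27ac, a histone mark of active promoters and enhancers, against SREBP2, a transcription factor of cholesterol synthesis genes, and against RORγ. Each antibody and treatment had 1 library, so the 6 groups have no replicate check, and no p-value is given.

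HOX genes code for homeodomain transcription factors that set position along the body axis in the embryo. Their order on the chromosome follows the order of the body regions in which they act, from the anterior group 1 to the posterior group 13. Polycomb proteins keep silent HOX genes free of acetylation, and Trithorax proteins maintain the active ones. Adult epithelia, breast included, keep some HOX genes active, and the choice differs between tissues and tumours.

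Depth, recovered from the peak values, ran from 3.65 to 6.16 tags per kb. With XY018 it was 0.913 times the vehicle depth for H3K27ac, 1.07 times for SREBP2 and 0.905 times for RORγ. H3K27ac marked the promoters of 4 of 4 epithelial genes (EPCAM, CDH1, KRT8 and KRT18) and of 3 of 4 basal genes with vehicle. Of the basal genes, EGFR had 231 fragments at the summit, KRT5 33 and KRT17 only 8, and KRT14 had no region. H3K27ac did not mark the promoters of PTPRC, a leukocyte gene, or PGR. ESR1, the estrogen receptor gene, had a region of only 10 fragments with vehicle and 13 with XY018. Of the fibroblast genes, COL1A1 carried a strong region, of 110 fragments with vehicle, and COL3A1 carried none. The H3K27ac lists hold part of longer call sets whose selection rule is not stated in the sources used, so a missing H3K27ac region means that none was in the list.

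Occupancy of SREBP2 and RORγ in the clusters was centred on CpG-rich DNA, and 6 such sites are shown as examples. Each is 121 bp of hg19 around a vehicle summit that lies in no annotated exon, printed 5′ to 3′ on the strand of the HOX genes, with every CpG in capitals. The sites were picked from the highest vehicle folds per cluster and factor among such summits. No comparison windows are printed. The HOXD13 site (SREBP2, chr2:176957300-176957420, plus strand) lies 89 bp upstream of the gene and holds a CACGTG E-box, a CCAAT box and a GGGCGG GC box. The HOXD3 site (SREBP2, chr2:177021837-177021957, plus strand) and the HOXD11 site (RORγ, chr2:176971662-176971782, plus strand) lie 138 and 286 bp upstream of transcript starts. These 3 lie in the cluster that carried almost no H3K27ac. The other 3 lie in acetylated clusters: the HOXA3 site (RORγ, chr7:27179222-27179342, minus strand), the HOXB9 site (RORγ, chr17:46702670-46702790, minus strand) and the HOXC5 site beside MIR615 (RORγ, chr12:54427844-54427964, plus strand). The HOXA3 site is named after an alternative HOXA3 start that lies between HOXA4 and HOXA5.
HOXD13: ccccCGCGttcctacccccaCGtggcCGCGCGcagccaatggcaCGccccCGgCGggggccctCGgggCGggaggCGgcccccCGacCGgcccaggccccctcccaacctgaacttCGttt
HOXD3: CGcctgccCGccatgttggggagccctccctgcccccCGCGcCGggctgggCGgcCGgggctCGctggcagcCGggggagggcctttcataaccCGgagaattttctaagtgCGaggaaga
HOXD11: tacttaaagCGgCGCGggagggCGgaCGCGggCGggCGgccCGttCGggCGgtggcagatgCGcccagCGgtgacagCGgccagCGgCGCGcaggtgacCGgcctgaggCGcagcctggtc
HOXA3: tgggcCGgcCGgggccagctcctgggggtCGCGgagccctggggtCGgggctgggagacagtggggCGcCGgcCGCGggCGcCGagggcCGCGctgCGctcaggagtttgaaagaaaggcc
HOXB9: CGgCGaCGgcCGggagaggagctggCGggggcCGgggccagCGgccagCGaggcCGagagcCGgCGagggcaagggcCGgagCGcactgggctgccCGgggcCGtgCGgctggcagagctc
HOXC5: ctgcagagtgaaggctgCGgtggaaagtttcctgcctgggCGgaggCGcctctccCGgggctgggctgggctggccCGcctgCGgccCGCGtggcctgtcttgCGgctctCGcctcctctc
The number of CpGs was 15, 11 and 19 in the HOXD windows and 14, 16 and 10 in the others, in the order printed.

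The clusters also hold 7 microRNA genes, of which 6 had a mature sequence in RefSeq (GRCh38.p14 table). The miR-196 genes of HOXA, HOXB and HOXC share a seed, bases 2 to 8, shown in capitals.
hsa-miR-196b-5p (MIR196B, HOXA): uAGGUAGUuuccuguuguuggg
hsa-miR-196a-5p (MIR196A1 in HOXB and MIR196A2 in HOXC): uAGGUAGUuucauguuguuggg
hsa-miR-615-3p (MIR615, HOXC): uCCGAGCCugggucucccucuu
hsa-miR-10b-3p (MIR10B, HOXD): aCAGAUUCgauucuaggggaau
The occupancy of these genes is given with the other non-coding RNAs.

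The first question was how much of each cluster the 3 antibodies covered. HOXA, HOXB and HOXC were covered by all 3, whereas HOXD was covered by SREBP2 and RORγ with almost no H3K27ac. H3K27ac regions spanned 16.2% of HOXA, 15.2% of HOXB and 24.7% of HOXC with vehicle, against 2.06% of the genome, but 0.263% of HOXD. With XY018 the H3K27ac shares were 16.9%, 14.7%, 27.2% and 0.745%, against 2.18% of the genome. SREBP2 covered 24.1%, 8.55%, 12.1% and 16.8% of the same clusters with vehicle, against a genome share of 1.62%. Its shares with XY018 were 19.3%, 7.47%, 10.8% and 13.7%, against 1.05%. RORγ covered 26.7%, 9.41%, 11.3% and 19.0% with vehicle, and 24.1%, 7.06%, 10.7% and 16.0% with XY018, against 2.02% and 1.63% of the genome. HOXD was thus second only to HOXA in the share covered by either factor, under both treatments.

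**Figure D1:**
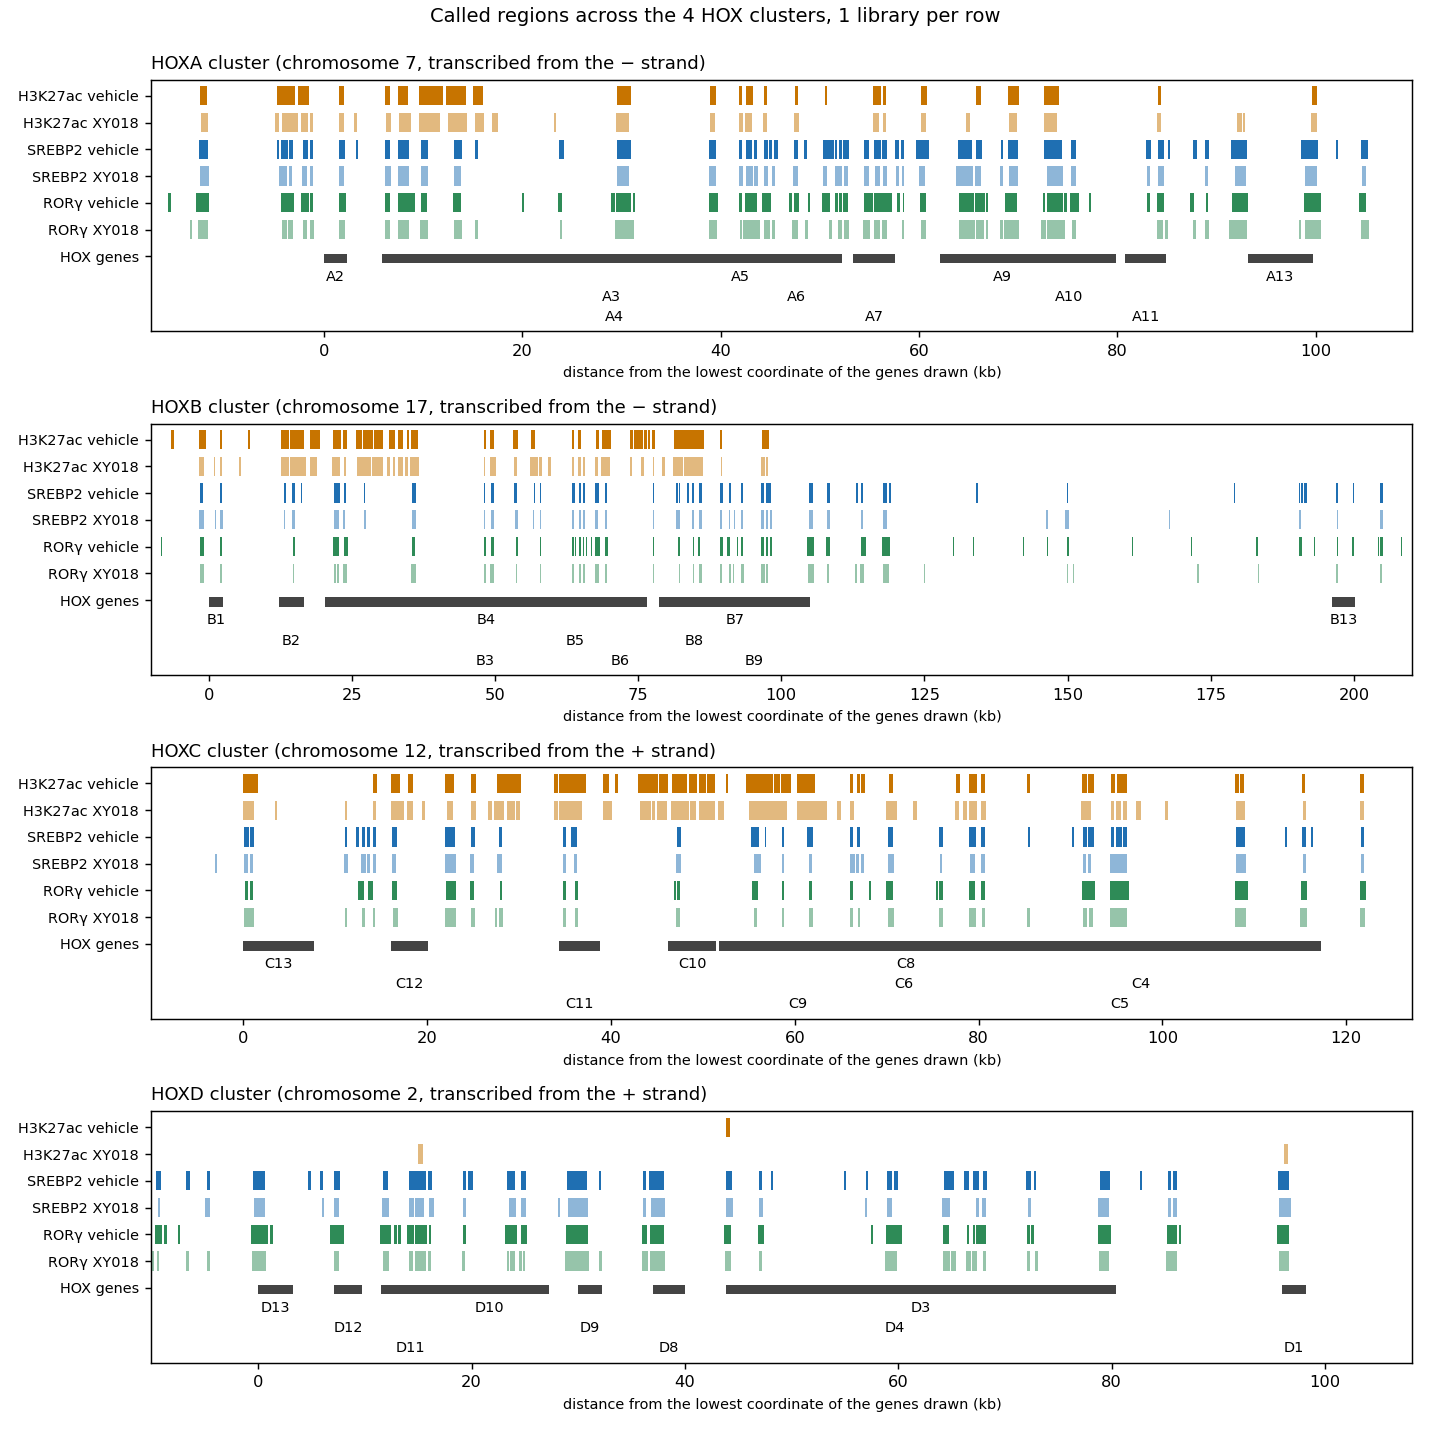
Map of the 4 HOX clusters with the regions of each of the 6 libraries, HOX genes drawn as dark bars and distance along the cluster in kb. HOXD has 36 SREBP2 and 32 RORγ regions with vehicle and 1 H3K27ac region, and HOXB has no H3K27ac region for 102 kb between HOXB9 and HOXB13.

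In numbers, the clusters held 101 of 95099 H3K27ac regions with vehicle and 118 of 105371 with XY018. They held 168 of 117441 and 140 of 69700 SREBP2 regions, and 160 of 167264 and 145 of 129954 RORγ regions. The deposited lists are permissive. With vehicle and XY018 the largest q was 0.417 and 0.608 for SREBP2, 0.371 and 0.374 for RORγ and 0.212 for H3K27ac in both. The study itself counted a stricter, high-confidence set of sites. Shares over all regions, given beside the clusters below, thus include many weak calls. The vehicle H3K27ac regions were split 25, 35, 40 and 1 over HOXA, HOXB, HOXC and HOXD. SREBP2 regions were split 49, 47, 36 and 36, and RORγ regions 48, 52, 28 and 32, so HOXD held 1 H3K27ac region beside as many SREBP2 regions as HOXC.

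Long stretches without H3K27ac also occurred inside an acetylated cluster. In HOXB the mark stopped at chr17:46703748, just upstream of HOXB9, and no region followed up to HOXB13, a stretch of 102 kb with vehicle and 103 kb with XY018. It holds an alternative HOXB7 start and MIR196A1. Within it lay the summits of 15 SREBP2 and 18 RORγ regions with vehicle and 10 and 11 with XY018. The highest RORγ fold of the whole HOXB cluster was in this stretch, at chr17:46710351-46711537, where the fold reached 23 and the summit held 47 fragments with vehicle and 33 with XY018. The longest such stretch was 15.2 kb in HOXA and 12.5 kb in HOXC with vehicle, and 54.0 kb in HOXD.

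**Figure D2:**
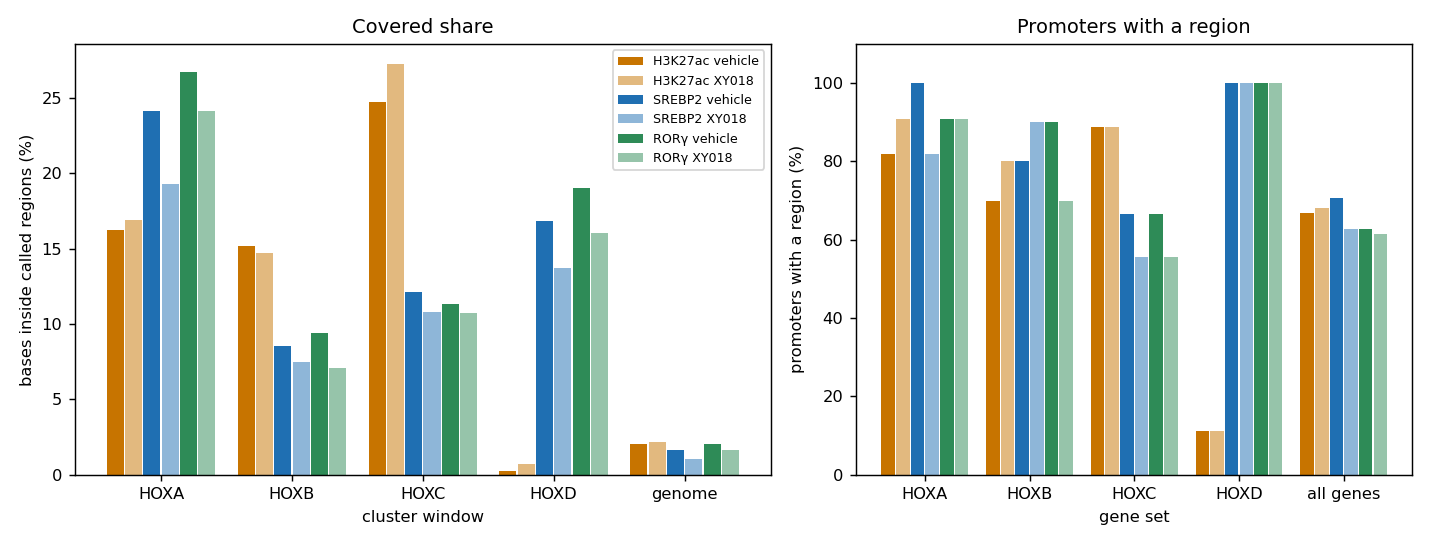
Share of each HOX cluster and of the genome covered by regions (left, percent of base pairs) and share of HOX promoters with a region (right, percent of genes), 1 bar per cluster and library. HOXD stands at 0.263% H3K27ac cover with vehicle beside 16.8% for SREBP2 and 19.0% for RORγ.

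The next question was how many HOX promoters were occupied. A promoter counted as called when a region overlapped the stretch from 1 kb upstream to 100 bp downstream of any transcript start. H3K27ac was called at 25 of 39 HOX promoters with vehicle and 27 with XY018. These shares, 64.1% (Clopper-Pearson 95% interval 47.2 to 78.8%) and 69.2% (52.4 to 83.0%), lie near the 66.8% and 68.0% of all protein-coding promoters. SREBP2 was called at 34 and 32, which is 87.2% (72.6 to 95.7%) and 82.1% (66.5 to 92.5%), against 70.6% and 62.7% of all promoters. RORγ was called at 34 and 31, which is 87.2% (72.6 to 95.7%) and 79.5% (63.5 to 90.7%), against 62.7% and 61.5%. For both factors and both treatments the background lay under the interval. These intervals, like all others given here, cover counting error only, and neighbouring HOX genes can share a region.

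The margin for the factors depended on which starts were used. A HOX gene had a median of 2 transcript starts against 5 over all genes. From the outermost 5′ start alone, RORγ was called at 66.7% of HOX promoters (49.8 to 80.9%) against 45.7% of all with vehicle. SREBP2 was also at 66.7% (49.8 to 80.9%), with 55.3% of all promoters now inside the interval. With XY018 the values were 61.5% (44.6 to 76.6%) against 47.0% for SREBP2 and 56.4% (39.6 to 72.2%) against 44.3% for RORγ, and both backgrounds lay inside the interval. H3K27ac was at 48.7% and 43.6% of HOX promoters, against 56.3% and 58.0%.

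By cluster, H3K27ac was called with vehicle at 9 of 11 HOXA promoters, 7 of 10 in HOXB, 8 of 9 in HOXC and 1 of 9 in HOXD. With XY018 the counts were 10, 8, 8 and 1. SREBP2 was called at 11, 8, 6 and 9 with vehicle and at 9, 9, 5 and 9 with XY018. RORγ was called at 10, 9, 6 and 9 with vehicle and at 10, 7, 5 and 9 with XY018. HOXD was the one cluster with both factors at every promoter in both treatments, and HOXC the one with fewer calls for either factor than for H3K27ac in both. The HOXD count rests on overlap with the window. When the summit itself had to lie inside it, SREBP2 was called at 5 HOXD promoters and RORγ at 6, under each treatment. Along the axis, H3K27ac was called with vehicle at 5 of the 8 anterior genes (groups 1 to 3), 11 of the 15 central genes (4 to 8) and 9 of the 16 posterior genes (9 to 13). For SREBP2 these counts were 7, 13 and 14, and for RORγ 8, 14 and 12.

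With vehicle, 21 HOX promoters (53.8%) had regions of all 3 antibodies, near the 50.6% of all promoters. A further 11 (28.2%, interval 15 to 44.9%) had SREBP2 and RORγ without H3K27ac, against 9.68% of all. These were HOXA2, HOXB1, HOXB5 and 8 HOXD genes, HOXD1, HOXD4, HOXD8, HOXD9, HOXD10, HOXD11, HOXD12 and HOXD13. HOXA11 had SREBP2 alone and HOXC11 H3K27ac alone. HOXC13 had H3K27ac with SREBP2, and HOXB3 and HOXC4 had H3K27ac with RORγ. HOXB13, the most posterior HOXB gene, and HOXC5 had no region of any antibody in any of the 6 libraries within the promoter window.

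HOX promoters with a factor but no H3K27ac were concentrated in HOXD. Over all HOX genes, 12 of 39 (30.8%) had SREBP2 or RORγ without H3K27ac with vehicle, against 13.7% of all genes, and 10 (25.6%) with XY018, against 10.9%. HOXD supplied 8 of them under each treatment (5 of 10 with vehicle and 5 of 8 with XY018 when summits had to lie inside the window). Without HOXD, 4 of 30 (13.3%, interval 3.76 to 30.7%) remained with vehicle, at the background. Among promoters without H3K27ac, both factors were called at 8 of 8 in HOXD (interval 63.1 to 100%) with vehicle, against 29.2% of 6669 promoters without the mark, and against 24.8% with XY018, where HOXD again had 8 of 8. That background depended strongly on CpG content. CpG content was measured at the canonical start of a gene, while a call could come from any of its starts. Genes without a canonical start are left out of the split that follows. Of promoters without H3K27ac whose CpG observed over expected was at least 0.6, 932 of 1356 (68.7%) had both factors, and in HOXD 6 of 6 (54.1 to 100%). Below that value the share was 998 of 5068 (19.7%), and in HOXD 2 of 2 (15.8 to 100%). With XY018 the CpG-rich share was 785 of 1215 (64.6%), and in HOXD 5 of 5 (47.8 to 100%). Below 0.6 with XY018 it was 796 of 4963 (16.0%), and in HOXD 3 of 3 (29.2 to 100%). The background lay inside the HOXD interval in each part of this split except below 0.6 with XY018. These HOXD counts are small and their intervals wide. The part of CpG content in the HOXD pattern was not tested beyond this split.

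The few H3K27ac regions of HOXD were weak. The vehicle region, chr2:177001331-177001641 at an alternative HOXD3 start, had 13 fragments at its summit and a fold of 6.45. With XY018 the regions were chr2:176972446-176972938 in the HOXD10 promoter, with 10 fragments and a fold of 5.32, and chr2:177053585-177053972 in the HOXD1 exon, with 9 fragments and a fold of 4.84. None overlapped a region of the other treatment, and all overlapped SREBP2 and RORγ regions. The factors, by contrast, had 20 to 39 summit fragments for SREBP2 and 27 to 42 for RORγ at the 9 HOXD promoters with vehicle.

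Strength was compared within a list by the deposited fold, which divides the pileup at the summit by the local background after adding 1 to each. At called HOX promoters the median H3K27ac fold was 22.6 with vehicle, against 24.4 over all called promoters, with a range of 3.86 to 65.7. It was 19.9 in HOXA, 38.1 in HOXB and 32.8 in HOXC. The median SREBP2 fold was 14.1 against 12.5, and 16.8, 8.04, 9.87 and 16.3 in HOXA, HOXB, HOXC and HOXD. The median RORγ fold was 16.6 against 11.8, and 24.2, 6.17, 5.46 and 17.9 in the same clusters. The factors were thus strongest in HOXA and HOXD, and HOXD promoters, with RORγ folds of 14.9 to 21.8, exceeded the median of all called promoters in 9 of 9 genes for RORγ and 8 of 9 for SREBP2. With XY018 the HOX medians were 29.5 against 29.5 for H3K27ac, 10.2 against 9.03 for SREBP2 and 15.9 against 11.1 for RORγ, and in HOXD 10.5 for SREBP2 and 18.1 for RORγ.

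Fold values, not fragments, are used between clusters because the local background was higher in HOXA. With vehicle, the local background under HOXA regions was 1.91 times the genome-wide one for H3K27ac, 2.13 times for SREBP2 and 2.04 times for RORγ. Over all regions it was 1.30, 1.33 and 1.21 times, and in the other clusters 1 to 1.18 times. More copies of this DNA in HCC70 and a higher background of another kind cannot be told apart.

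**Figure D3:**
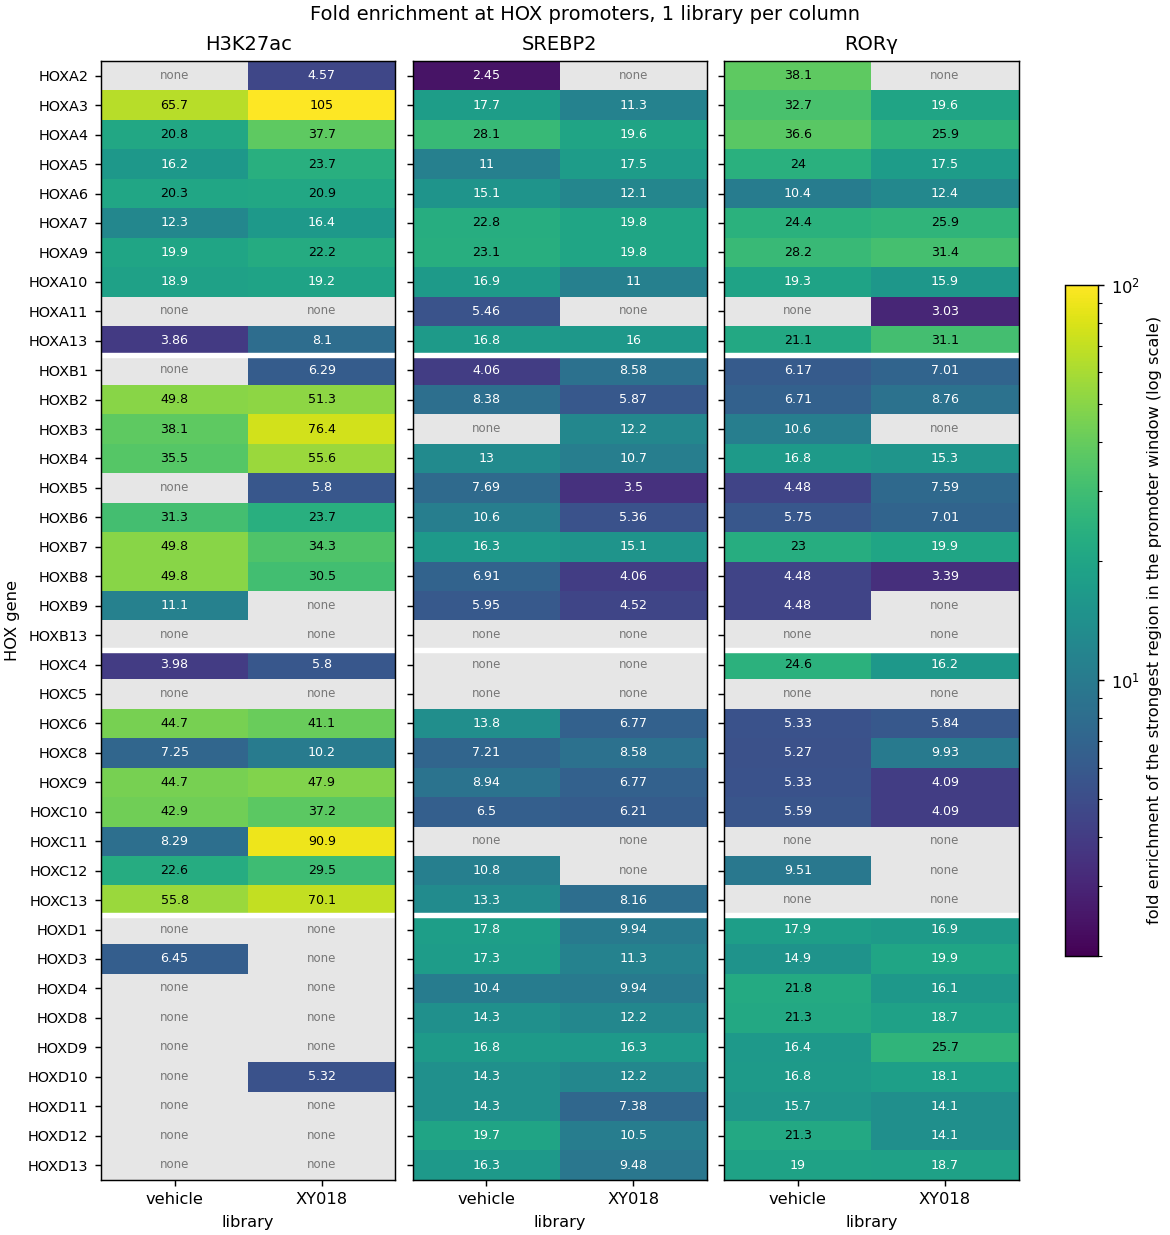
Fold of the strongest region in the promoter window of the HOX genes (rows, by cluster and paralogue group) in the 6 libraries (columns), with grey where no region was called. In the HOXD block 1 promoter per treatment is filled for H3K27ac and every promoter for SREBP2 and RORγ.

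The genes with the highest vehicle folds differed between the mark and the factors. For H3K27ac they were HOXA3, HOXC13, HOXB2 and the pair HOXB7 and HOXB8. HOXA3 (chr7:27152315-27154305) had a fold of 65.7 and 238 fragments with vehicle and a fold of 105 and 292 fragments with XY018. HOXC13, a posterior gene known for its role in hair and nail, had 120 and 144 fragments and folds of 55.8 and 70.1. HOXB2 had 107 and 121 fragments and folds of 49.8 and 51.3. HOXB7 and HOXB8 shared 1 vehicle region, chr17:46687071-46692460, with a fold of 49.8 and 107 fragments, and with XY018 their strongest regions had 70 and 62, with folds of 34.3 and 30.5. With vehicle all these folds were well above the median of 24.4, whereas with XY018 HOXB7 and HOXB8 lay near the median of 29.5.

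For SREBP2 the order was HOXA4, HOXA9, HOXA7 and HOXD12. HOXA4 (chr7:27169504-27170935) had a fold of 28.1 with 81 fragments with vehicle and 19.6 with 69 fragments with XY018. HOXA9, a gene active in blood progenitors, had 66 and 54 fragments, in different regions of its several starts. HOXA7 had 71 and 56 fragments, and HOXD12 (chr2:176964520-176965135) had 39 and 23, with folds of 19.7 and 10.5. For RORγ the order was HOXA2, HOXA4, HOXA3 and HOXA9. HOXA2, a gene of the hindbrain and second branchial arch, had a fold of 38.1 and 94 fragments with vehicle (chr7:27141549-27142252). That region overlapped an H3K27ac region of 50 fragments, chr7:27141539-27142040, which lies outside the promoter window, so H3K27ac was not called at this promoter. HOXA4 had folds of 36.6 and 25.9 and 89 and 76 fragments. HOXA3 had 87 fragments with vehicle (chr7:27178794-27179752) and 94 in the overlapping XY018 region. This region counts through an alternative HOXA3 start that lies between HOXA4 and HOXA5. At the HOXA3 start under the H3K27ac region named above, RORγ had 44 fragments with each treatment. HOXA9 had folds of 28.2 and 31.4 and 69 and 66 fragments. HOXA4 and HOXA9 were among the highest for both factors.

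The second comparison was XY018 against vehicle at promoters called in both. Summit fragments were divided by the genome-wide background of their library, and a ratio of at most 1/1.5 or at least 1.5 is called lower or higher. The scaled SREBP2 ratio was below 1 at nearly all HOX promoters, as at other promoters. The median XY018/vehicle ratio was 0.659 over 31 HOX genes, 30 of them below 1, against 0.621 over 12336 genes. SREBP2 was lower by the 1.5-fold rule at 17 of 31 (54.8%), against 62.3% of all, and higher at HOXB1 alone, against 0.0567% of all. RORγ showed no common direction. Its median was 0.990 over 30 genes, 16 below and 14 above 1, against 0.967, with 2 genes lower (background 9.55%) and 2 higher (background 7.32%). H3K27ac had a median of 1.16 over 23 genes, 14 above and 9 below 1, against 1.27, with 1 gene lower (background 3.08%) and 4 higher (background 22.6%). The exact 95% interval of the ratio lay clear of 1 at 9 genes for SREBP2, all below, at 8 for H3K27ac, 2 below and 6 above, and at 0 of 30 for RORγ. Over all promoters the interval lay below 1 at 36.8% and above at 0.00811% for SREBP2, below at 1.93% and above at 36.1% for H3K27ac, and below at 1.65% and above at 1.13% for RORγ.

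**Figure D4:**
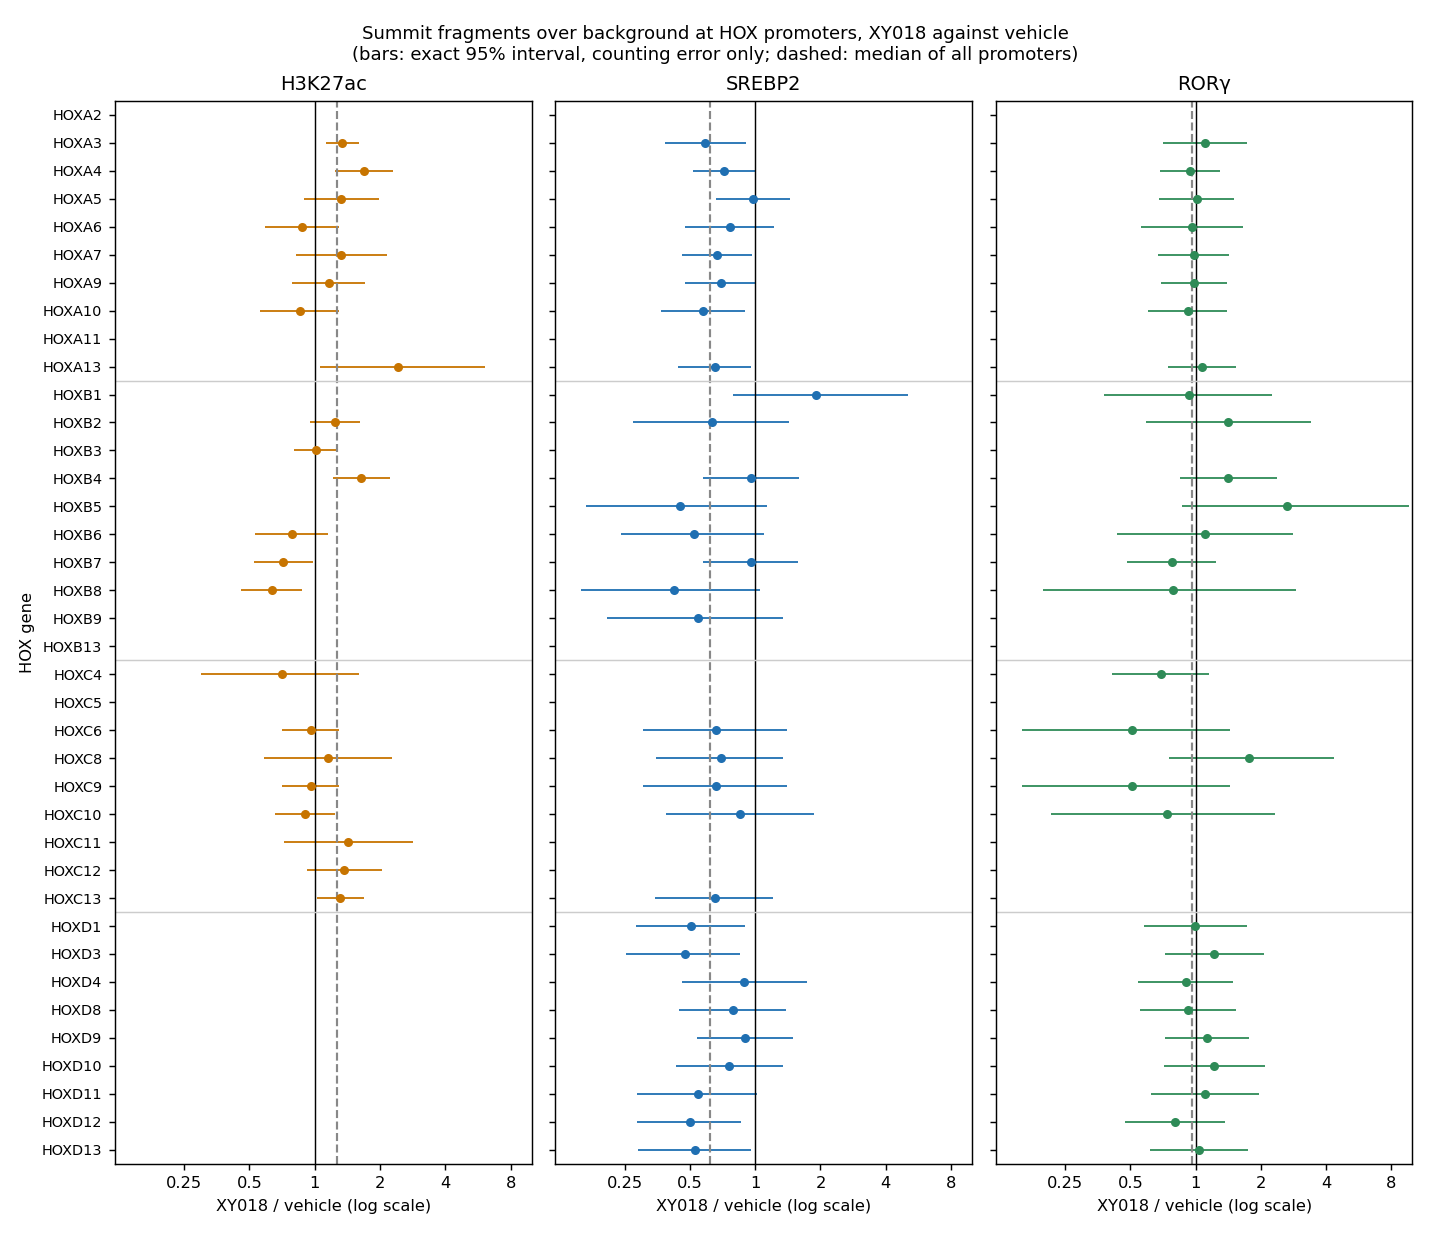
XY018/vehicle ratio of summit fragments over the genome-wide background (x axis, log scale) for each HOX promoter called in both libraries (y axis), 1 panel per antibody. Bars are exact 95% intervals for counting error, the solid line is 1 and the dashed line is the median of all promoters, and every SREBP2 point drawn except that of HOXB1 lies below 1.

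Of the SREBP2 promoters called lower or higher, those farthest from the median of all promoters were HOXB1, HOXB8, HOXB5 and HOXD3. HOXB1 went from 8 to 18 fragments, a ratio of 1.91 (0.788 to 5.06), HOXB8 from 16 to 8 (0.423) and HOXB5 from 15 to 8 (0.452). HOXD3 went from 34 to 19 fragments, a ratio of 0.473 (0.255 to 0.853). The HOXB values rest on few fragments, and the interval of HOXB1 includes 1. The SREBP2 median was 0.668 in HOXA, 0.590 in HOXB, 0.659 in HOXC and 0.544 in HOXD.

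Within HOXD the SREBP2 and RORγ ratios can be read gene by gene, since all 9 promoters were called in all 4 libraries. SREBP2 fragments with vehicle and XY018 were 35 and 21 at HOXD1, 34 and 19 at HOXD3, 39 and 23 at HOXD12, 32 and 20 at HOXD13 and 28 and 18 at HOXD11. They were 20 and 21 at HOXD4, 28 and 26 at HOXD8, 33 and 35 at HOXD9 and 29 and 26 at HOXD10. After scaling, 9 of 9 ratios were below 1 and 5 were lower by the 1.5-fold rule, namely HOXD1, HOXD3, HOXD11, HOXD12 and HOXD13. The interval of HOXD11 (0.284 to 1.02) includes 1, and its paired summits lay 1031 bp apart. Paired SREBP2 summits also lay 914 bp apart at HOXD8, 419 bp at HOXD13 and 267 bp at HOXD3, so these ratios may compare different sites. RORγ fragments were 31 and 28 at HOXD1, 30 and 33 at HOXD3, 38 and 31 at HOXD4, 37 and 31 at HOXD8 and 42 and 43 at HOXD9. They were 29 and 32 at HOXD10, 27 and 27 at HOXD11, 37 and 27 at HOXD12 and 33 and 31 at HOXD13, and no HOXD ratio for RORγ was beyond 1.5 either way. The median RORγ ratio was 1.04 in HOXD, 0.983 in HOXA, 1.11 in HOXB and 0.694 in HOXC.

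For RORγ, HOXB5 went from 5 to 12 fragments, a ratio of 2.65 (0.870 to 9.61), and HOXC8 from 10 to 16 (1.77, interval 0.755 to 4.36). HOXC6 and HOXC9 share 1 region, which went from 13 to 6 fragments (0.510, interval 0.159 to 1.44). All 3 intervals include 1. For H3K27ac, HOXA13 went from 9 to 20 fragments (2.43, interval 1.06 to 6.07), HOXA4 from 71 to 109 (1.68, interval 1.24 to 2.30) and HOXB4 from 76 to 114 (1.64, interval 1.22 to 2.23). HOXB8 was the one lower promoter, from 107 to 62 fragments (0.635, interval 0.457 to 0.876), where a broad vehicle region was paired with an XY018 region whose summit lay 2406 bp away. The H3K27ac median ratio was 1.32 in HOXA, 0.895 in HOXB and 1.06 in HOXC.

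Promoter calls that differed between treatments were few, and many were set by the edge of the window. The share of HOX vehicle calls absent with XY018 was 8% for H3K27ac, 8.82% for SREBP2 and 11.8% for RORγ, against 3.25%, 12.5% and 8.25% of all promoters. H3K27ac was called with vehicle only at HOXB9 and HOXD3 and with XY018 only at HOXA2, HOXB1, HOXB5 and HOXD10. These had 23, 13, 11, 12, 11 and 10 fragments, and at HOXB9 and HOXB1 a region of the other treatment, of 30 and 14 fragments, overlapped the called one outside the window. SREBP2 was called with vehicle only at HOXA2 (14 fragments), HOXA11 (15) and HOXC12 (21), and with XY018 only at HOXB3 (26). At HOXC12 and HOXB3 an overlapping region of 14 and 24 fragments lay just outside. RORγ was called with vehicle only at HOXA2, HOXB3, HOXC12 and HOXB9 and with XY018 only at HOXA11. At HOXA2 the vehicle region of 94 fragments was overlapped by an XY018 region of 80, at HOXB3 18 by 11 and at HOXC12 16 by 11. The calls with no counterpart, HOXB9 with 7 fragments and HOXA11 with 8, were weak.

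HOXC11, a posterior HOXC gene, shows the same limit for strength. Its strongest H3K27ac region in the window had 17 fragments and a fold of 8.29 with vehicle. With XY018 it had 187 fragments and a fold of 90.9 at chr12:54366985-54369408, whose summit lies 1894 bp from the start. The matched pair of regions had 17 and 22 fragments, a ratio of 1.42.

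Over the whole clusters, regions present with vehicle were also present with XY018 more often than elsewhere. A vehicle region was counted as kept when it shared at least 1 bp with an XY018 region of the same antibody. H3K27ac kept 89 of 101 (88.1%, interval 80.2 to 93.7%) against 69.3% of all regions, SREBP2 134 of 168 (79.8%, interval 72.9 to 85.6%) against 39.8% and RORγ 122 of 160 (76.2%, interval 68.9 to 82.6%) against 36.4%. Region strength moved with this difference. The median summit fragments of vehicle regions were 26 in the clusters against 15 over all for H3K27ac, 21 against 10 for SREBP2 and 13 against 7 for RORγ. In the clusters, kept regions had medians of 28, 25 and 18 fragments and the others 13, 10 and 5.5. With q of at most 1e-05 required in both the vehicle and the XY018 list, the cluster and genome shares were 89.4% and 71.3% for H3K27ac, 75.0% and 60.3% for SREBP2 and 91.8% and 80.6% for RORγ. This filter also removed weak XY018 regions that could have counted as partners.

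Vehicle regions that were not kept had modest folds. The highest per cluster ran from 6.45 to 7.83 for H3K27ac, from 5.95 to 11.8 for SREBP2 and from 3.92 to 5.04 for RORγ. For H3K27ac these regions were chr7:27190477-27190737 in HOXA with 19 fragments, chr17:46681912-46682358 in HOXB with 16, chr12:54399865-54400239 in HOXC with 13 and the HOXD3 region of 13. For SREBP2 they were chr7:27163720-27164148 with 28, chr17:46703635-46703852 with 13, chr12:54417977-54418188 with 12 and chr2:177017081-177017409 with 23. For RORγ they were chr7:27197709-27198042 with 10, chr17:46796274-46796878 with 8, chr12:54346179-54346681 with 6 and chr2:177014889-177015083 with 6. The highest of these folds, 11.8, was at the HOXD SREBP2 site.

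Several of the strongest cluster regions lay outside HOX promoters. In HOXB the highest H3K27ac fold was 59.0, with 127 fragments, in a HOXB3 intron at chr17:46641158-46642410. In HOXC it was 68.5, with 159 fragments, at chr12:54367014-54369910 in a HOXC11 intron, at the start of the antisense RNA HOTAIR. The highest SREBP2 folds of HOXB and HOXC were 21.2 with 42 fragments at chr17:46627730-46628750 and 21.7 with 43 fragments at chr12:54424523-54425199, where XY018 gave 17. The highest RORγ folds of HOXC and HOXD were at HOX promoters, 24.6 with 43 fragments at HOXC4 (chr12:54447686-54448341) and 21.8 with 38 fragments at HOXD4 (chr2:177016307-177017834).

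SREBP2 and RORγ regions coincided more often in the clusters than elsewhere. With vehicle, 78.0% of cluster SREBP2 regions overlapped a RORγ region (interval 70.9 to 84.0%), against 49.0% of all, and 76.2% of RORγ regions overlapped a SREBP2 region, against 34.6%. With XY018 these shares were 87.9% against 64.0% and 84.1% against 33.9%. Overlap with H3K27ac differed by cluster. Of SREBP2 regions with vehicle, 53.1% in HOXA, 57.4% in HOXB, 77.8% in HOXC and 2.78% in HOXD (interval 0.0703 to 14.5%) overlapped H3K27ac, against 27.3% of all. Of RORγ regions, 82.1% did so in HOXC and 3.12% in HOXD, against 16.7%. Across HOX promoters called for both, SREBP2 and RORγ fragments had a Pearson correlation of 0.74 and a Spearman correlation of 0.71 over 32 genes with vehicle, and 0.89 and 0.92 over 29 with XY018. These are descriptions across genes, which are not independent replicates and share the high local background of HOXA. The Pearson correlation with H3K27ac was −0.12 for SREBP2 (22 genes) and −0.10 for RORγ (23 genes) with vehicle. With XY018 it was 0.16 (23 genes) and 0.06 (22 genes), so the sign was not stable. Only promoters called for H3K27ac enter, which leaves out most of HOXD.

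The clusters hold 37 long non-coding and microRNA genes. With vehicle 20 of them had H3K27ac in the promoter window, 32 SREBP2 and 30 RORγ, against 24.4%, 27.6% and 25.8% of 21621 such genes. The annotated microRNA genes are short, such as chr17:46709852-46709921 for MIR196A1. Their window therefore need not hold the start of transcription. H3K27ac was at 6 of 11 in HOXA, 4 of 10 in HOXB, 9 of 10 in HOXC and 1 of 6 in HOXD. Their promoters can overlap those of HOX genes, in which case the same region counts for both. HOTAIR, the antisense RNA of HOXC, had 159 and 187 H3K27ac fragments with vehicle and XY018, 28 and 17 for SREBP2 and 12 and 15 for RORγ. HOTTIP, at the HOXA13 end, had 9 and 20 for H3K27ac but 65 and 50 for SREBP2 and 66 and 64 for RORγ. HAGLR, the antisense RNA beside HOXD1, had no H3K27ac region with vehicle and 9 fragments with XY018, 35 and 22 for SREBP2 and 31 and 28 for RORγ. HOTAIR thus had H3K27ac and both factors in both treatments, while HAGLR had both factors with H3K27ac at 9 fragments in 1 of its 2 libraries.

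The miR-196 genes, whose mature forms share the seed printed above, differed in the regions found in these windows. MIR196B in HOXA had 54 and 57 fragments for H3K27ac, 43 and 46 for SREBP2 and 60 and 31 for RORγ with vehicle and XY018. MIR196A1 in HOXB had no H3K27ac, 32 and 36 for SREBP2 and 47 and 33 for RORγ. MIR196A2 in HOXC had 10 and 11 for H3K27ac and no region of either factor. MIR615, inside HOXC5, had 38 and 42, 37 and 30, and 37 and 41 fragments for H3K27ac, SREBP2 and RORγ. MIR10B in HOXD had no H3K27ac, 11 and 6 fragments for SREBP2 and 6 for RORγ with vehicle only. MIR3185, near HOXB13, had 8 fragments for SREBP2 with vehicle and 13 for RORγ with XY018. Among the miR-196 genes, all 3 antibodies were found at MIR196B alone.

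HOX summits were richer in GC and CpG than those of other regions. Within 100 bp of a vehicle summit, GC content was 69.7% for SREBP2 in the clusters against 64.2% for all regions, 68.2% against 53.2% for RORγ and 70.1% against 53.7% for H3K27ac. The CpG observed over expected was 0.789 against 0.424, 0.774 against 0.349 and 0.671 against 0.315, and in HOXD 0.821 for SREBP2 and 0.845 for RORγ. At promoters themselves HOX genes were not richer, with a median CpG observed over expected of 0.593 against 0.634 over 19812 genes with a canonical start. That median was 0.711 in HOXD, 0.623 in HOXA, 0.549 in HOXB and 0.420 in HOXC, so the clusters with the highest factor folds also had the highest CpG content at promoters.

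Both strands of the 100 bp on either side of each vehicle summit were searched for motifs. The GC box GGGCGG was in 54.8% of cluster SREBP2 regions (46.9 to 62.4%) against 30.1% of all, and in 42.5% of RORγ regions (34.7 to 50.6%) against 19.6%. The core letters GGTCA of the RORE, the binding element of ROR receptors, was less common in the clusters, at 20.8% against 34.3% for SREBP2 and 20.6% against 39.1% for RORγ. The longer pattern, the RORE core, was at 1 of 160 RORγ regions, 0.625% against 0.216%. The SRE, TCACNCCAC, taken as the element of SREBP factors, was at 0 of 168 SREBP2 regions (interval 0 to 2.17%) against 2.42%. The E-box CACGTG was at 2.98% against 4.72% and the CCAAT box at 11.9% against 10.8% of SREBP2 regions. The GC box overlaps CpG-rich sequence by its own letters. A match is a description of these windows, and a missing match says only that the letters were not found there.

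Genes that work with or on HOX proteins were counted in the same way, beside the 66.8%, 70.6% and 62.7% of all promoters with H3K27ac, SREBP2 and RORγ with vehicle. Of the 9 TALE partners (the PBX, MEIS and PKNOX genes, whose proteins bind DNA together with HOX proteins), 8 had H3K27ac, 9 SREBP2 and 9 RORγ with vehicle. The exception, MEIS3, had 27 H3K27ac fragments with XY018. For the TALE genes the background lay inside the interval for H3K27ac (51.8 to 99.7%) and SREBP2 (66.4 to 100%). It lay under the interval for RORγ (66.4 to 100%). All 24 Polycomb genes listed had H3K27ac and SREBP2 (85.8 to 100% for each), and 20 had RORγ. Here the background lay inside the interval for RORγ (62.6 to 95.3%) alone. All 11 Trithorax genes had H3K27ac, 9 SREBP2 and 8 RORγ, and for both factors the background lay inside the interval (48.2 to 97.7% and 39 to 94.0%). Of 57 other homeobox genes, 23 had H3K27ac, and 53 each SREBP2 and RORγ, with 31 (54.4%) carrying a factor but no H3K27ac with vehicle and 25 (43.9%) with XY018. HOXD, with 8 of 9, was therefore not the one group of homeobox genes occupied by the factors without the mark.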

How the data were processed

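HCC70 cells were profiled by chromatin immunoprecipitation sequencing. Of 12 samples, the 6 immunoprecipitated libraries were used, grouped by the antibody and treatment labels, and the 6 inputs were not used here. The submitters' processing notes name Bowtie2, MACS2 2.1.0, bedtools and hg19, whereas the methods of the study give BWA with removal of duplicate and multiply placed tags. The authors called regions in each library and deposited their fold, a ratio of summit to local background, with −log10 p and −log10 q values and a display score, which was not used.

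GENCODE 44 starts on GRCh37 (hg19), chromosomes 1 to 22 and X, served as annotation. The Poisson model of MACS was solved for the summit fragments and local background that give each fold and −log10 p. Nearly 100% of regions gave whole numbers, within 5% of a step. The most common local background was the genome-wide one, from 0.712 to 1.21 fragments. Divided by the smallest region width, 185 to 205 bp, it gave depth. H3K27ac peak numbers reached 245055 with vehicle and 241397 with XY018. Shares have Clopper-Pearson and fragment ratios exact 95% intervals, with scipy 1.17.1 in Python 3.11.15. The inversion was tested on simulated data.

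Genes named were the 4 with the highest vehicle fold per antibody, up to 6 with a changed call, those with no region, and up to 4 with a ratio beyond 1.5. HOXC11, the remaining HOXD genes and the non-coding RNAs were chosen after their values were seen. The strongest region of each cluster and antibody, with 1 exception in HOXA, and the strongest not kept, were named. Of the HOX genes, 1 is in the counts but is not reported here by name or drawn. Members and lists were chosen with earlier results of these data known.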

Additional observations from a re-analysis of the deposited data

How the results depend on the processing

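Of the values recomputed for the counts, shares and median ratios over all HOX genes, 83 stayed near those given, 17 moved and 3 changed side of 1. When summits had to lie inside the promoter window, the vehicle counts fell from 34 to 23 for SREBP2, from 34 to 24 for RORγ and from 25 to 18 for H3K27ac. These count as near, and the share over all promoters was not computed for this setting. With the outermost 5′ start alone, H3K27ac was called at 17 HOX promoters with XY018 and all 3 antibodies at 11 with vehicle. With promoters of CpG observed over expected of at least 0.6 alone, an alternative added after seeing the data, 7 HOX promoters had a factor without H3K27ac with vehicle and 5 with XY018. At q of at most 1e-05 in both lists, 98 RORγ vehicle regions were left in the clusters, and 91.8% were kept. When summits had to lie within 100 bp, the kept share in the clusters was 68.3% for H3K27ac, 62.5% for SREBP2 and 61.2% for RORγ, against 47.4%, 29.7% and 24.6% of all regions. With the vehicle list shortened to the length of the XY018 list, SREBP2 kept 86.1%, against 62.2% of all. The H3K27ac median ratio was 1.06 without scaling, 1.31 for the nearest region and 1.37 over the local background, also added after seeing the data. The SREBP2 ratio was 0.730 per tag, 0.778 without scaling and 0.755 over the local background. The RORγ ratio was 0.896 without scaling and went above 1 with the nearest region (1.06), at q of at most 1e-05 (1.01) and over the local background (1.05). The cause of these changes was not tested. No paired analysis was possible because each group had 1 library and the labels carry no replicate numbers. Depth limits low values: for 5 and 12 RORγ fragments at HOXB5 the interval of the ratio ran from 0.870 to 9.61.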
